A study of Mus musculus with 5 samples.

Results

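*Folh1*, *Csdc2*, *Enpp6* and *Pipox* were higher, and *Zdhhc20*, *Clstn2*, *Syt4* and *Inmt* lower, in DBA/2J than in *Gpnmb*+ pools of mouse iridocorneal tissue. These 8 genes, of 56941 in the count table, were selected on their raw counts in these pools, because they differed between the genotypes with little spread within each. The difference between genotypes is therefore a description, and no p-value is given for any of the 8. All 8 passed the minimum of 10 counts in at least 1 pool, as did 19713 genes in all.

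Aqueous humor leaves the eye through the iridocorneal angle, where iris and cornea meet, and RNA-seq was run on pools of this tissue from mice 12 months old. The study labels 3 pools DBA/2J, a strain that carries a loss-of-function *Gpnmb* allele and the *Tyrp1* b allele and develops pigmentary glaucoma. The other 2 pools are labelled DBA/2J-Gpnmb+/SjJ, here *Gpnmb*+, the matched strain with a functional *Gpnmb* allele and the same *Tyrp1* b allele. None was treated. Each pool is described as 3 mice, although the library names list 3 animals for every DBA/2J pool and 2 for every *Gpnmb*+ pool. Both groups are described as males and females. Counts on genes came to between 43900661 and 49837758 per pool. *Gpnmb* itself had 1946 to 2234 counts in DBA/2J against 110568 and 129659 in *Gpnmb*+, as the labels give the genotypes. The Y-linked gene *Ddx3y* reached 3608, 4168 and 1567 counts across DBA/2J pools 1 to 3 but 0 and 4 across *Gpnmb*+ pools 1 and 2, which goes against the description of that group as including males. *Xist*, transcribed from the inactive X of female cells, had 596, 0 and 2417 counts in DBA/2J against 7843 and 9152. Sex composition thus differed between the genotypes, and the effects of sex and genotype cannot be told apart in the values below. In whole tissue, fewer cells of a type and less RNA per cell cannot be told apart.

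The genes belong to separate parts of cell biology. *Folh1* encodes glutamate carboxypeptidase II, a membrane peptidase that trims glutamate from folate and from the neuropeptide NAAG. *Enpp6* encodes an ectoenzyme that releases phosphocholine from glycerophosphocholine, and *Pipox* a peroxisomal oxidase of sarcosine and pipecolate. *Inmt* encodes a methyltransferase that uses S-adenosylmethionine to methylate indoleamines. *Csdc2* encodes an RNA-binding protein with a cold shock domain. *Zdhhc20* encodes one of the DHHC enzymes that attach palmitate to cysteines of membrane proteins. *Syt4* is a synaptotagmin of secretory vesicles, and *Clstn2* a calsyntenin, a cadherin-like protein of synaptic membranes.

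The 250 bases before the annotated start show how unlike the start regions of these genes are, and those of 3 of them are printed below from GRCm39, 5′ to 3′ on the strand of the gene. Capitals mark matches on either strand to 7 motifs searched, namely the TATA box TATAAA, the CCAAT box, the GC box GGGCGG, the E-box CACGTG, the AP-1 motif TGACTCA, the SOX motif ACAAAG and the M-box TCATGTG, a sequence bound by MITF. *Zdhhc20*, at chr14:58127813-58128062, is GC-rich, *Folh1*, at chr7:86425187-86425436, is AT-rich, and *Inmt*, at chr6:55152029-55152278, holds no CG pair.
Zdhhc20: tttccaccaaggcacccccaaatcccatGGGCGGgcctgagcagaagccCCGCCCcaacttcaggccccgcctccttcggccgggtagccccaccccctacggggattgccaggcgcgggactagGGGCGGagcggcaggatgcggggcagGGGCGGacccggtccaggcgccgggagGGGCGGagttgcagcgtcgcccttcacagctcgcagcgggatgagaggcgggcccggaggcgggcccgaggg
Folh1: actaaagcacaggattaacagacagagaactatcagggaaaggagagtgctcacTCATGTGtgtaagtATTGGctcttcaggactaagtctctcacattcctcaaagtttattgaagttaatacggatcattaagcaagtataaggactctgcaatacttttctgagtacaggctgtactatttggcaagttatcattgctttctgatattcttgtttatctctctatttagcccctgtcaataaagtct
Inmt: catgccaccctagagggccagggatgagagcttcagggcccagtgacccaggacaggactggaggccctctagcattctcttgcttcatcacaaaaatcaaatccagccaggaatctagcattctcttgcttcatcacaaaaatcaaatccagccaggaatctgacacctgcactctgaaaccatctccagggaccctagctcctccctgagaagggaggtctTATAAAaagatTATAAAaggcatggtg

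The *Zdhhc20* window held 5 GC boxes and 24 CG pairs, and the *Clstn2* window held 27 CG pairs and none of the motifs. The *Inmt* window held 2 TATA boxes, beginning 27 and 16 bases before the start, and 0 CG pairs. Over the windows of 19612 tested genes the median was 10 CG pairs, 41.5% held a GC box and 9.35% a TATA box. The *Folh1* window held 1 M-box and 1 CCAAT match, which 2.35% and 34.3% of all windows held, and 1 CG pair. *Csdc2*, *Enpp6* and *Pipox* had 2, 4 and 4 CG pairs, so the 4 genes higher in DBA/2J all lay under the median and those lower in DBA/2J on either side of it. *Pipox* held 1 SOX match, found in 14.5% of all windows. No E-box or AP-1 match was found in the 7 windows read, against 6.63% and 3.61% of all windows. The *Csdc2* window overlaps annotated exons, one of them of another *Csdc2* transcript, and *Syt4* was not read.

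No 2 of the genes share a chromosome. On GRCm39 they lie at chr7:86367992-86425186 (*Folh1*), chr15:81817755-81835143 (*Csdc2*), chr8:47439919-47549797 (*Enpp6*), chr11:77771439-77784922 (*Pipox*), chr14:58070038-58127812 (*Zdhhc20*), chr9:97326448-97915305 (*Clstn2*), chr18:31570857-31580794 (*Syt4*) and chr6:55147606-55152028 (*Inmt*). *Csdc2* and *Enpp6* are on the plus strand and the others on the minus strand. *Syt4* shares 786 exonic bases, 19.1% of its exons, with *Gm26658* on the opposite strand, which had 8 counts over all pools against 6397 for *Syt4*. *Csdc2* shares 54 exonic bases with *Gm62067*, also on the opposite strand, and the exons of the other 6 genes overlapped no other annotated gene.

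CPM here are counts scaled to a common library size with TMM, a method that corrects for library composition, and fold changes with their standard errors (SE) came from edgeR's fit of all 19713 genes. A positive log2 fold change means a higher level in DBA/2J. A gene was called where edgeR's quasi-likelihood test gave an adjusted p-value (Benjamini-Hochberg) no higher than 0.05 with a change of 1.5-fold or more. That held for 8 of 8, against 0.796% of all genes tested, with 4 called higher against 0.502% of all genes and 4 lower against 0.294%. The pools of the genotypes did not overlap for 8 of 8, against 34.5% of all genes (17.3% higher, 17.2% lower). These counts follow from how the genes were chosen and are no test of them. The number called was 1, 0 and 3 without DBA/2J pools 1, 2 and 3, and 6 and 0 without *Gpnmb*+ pools 1 and 2, fits in which 6, 1, 17, 217 and 2 of all genes were called.

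*Folh1* was the most even of the genes. It had 69.1, 78.0 and 72.1 CPM in DBA/2J, in the order of pools 1 to 3, against 32.8 and 32.7 CPM in *Gpnmb*+. The *Gpnmb*+ pools differed by a ratio of 1.01, a coefficient of variation of 0.403% where counting error alone gives 2.48%, and the DBA/2J pools by 1.13. The log2 fold change was 1.16 (SE 0.09).

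*Csdc2* had the largest fold change of the genes higher in DBA/2J, at a log2 fold change of 1.72 (SE 0.12). It had 32.8, 31.6 and 37.3 CPM in DBA/2J against 10.7 and 9.85 CPM in *Gpnmb*+. The lowest DBA/2J pool was 2.95 times the higher *Gpnmb*+ pool.

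*Pipox* was the gene with fewest reads, at 262, 292 and 297 counts in DBA/2J against 124 and 104 in *Gpnmb*+. Its level was 5.89, 6.80 and 6.66 CPM against 2.44 and 2.13 CPM, a log2 fold change of 1.50 (SE 0.18). In *Gpnmb*+ the coefficient of variation between pools, 9.83%, was close to the 9.37% of counting error.

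*Enpp6* had 11.1, 9.27 and 8.18 CPM in DBA/2J against 3.78 and 3.41 CPM in *Gpnmb*+ (log2 fold change 1.40, SE 0.19). Its DBA/2J pools spread over a ratio of 1.36, the widest of the genes higher in DBA/2J, with pool 1 highest. In *Gpnmb*+ its coefficient of variation, 7.27%, was under the 7.46% of counting error.

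*Zdhhc20* had 16.2, 16.9 and 19.8 CPM in DBA/2J against 48.7 and 56.0 CPM in *Gpnmb*+. All DBA/2J pools lay at or under 19.8 CPM and the *Gpnmb*+ pools were 2.47 times that or more. Its level was 2.97 times higher in *Gpnmb*+ (log2 fold change -1.57, SE 0.12).

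*Clstn2*, the longest of the genes at 588.9 kb, had 7.42, 8.76 and 7.15 CPM in DBA/2J against 29.1 and 26.2 CPM in *Gpnmb*+. The log2 fold change was -1.83 (SE 0.13), and the coefficient of variation was 11.1% in DBA/2J and 7.27% in *Gpnmb*+.

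*Syt4* had the largest difference of the 8 genes, a level 6.73 times higher in *Gpnmb*+ with a log2 fold change of -2.75 (SE 0.20). Counts were 267, 364 and 422 in DBA/2J and 2554 and 2790 in *Gpnmb*+. In CPM these were 6.01, 8.48 and 9.46 against 50.3 and 57.0. The groups lay 5.32 times apart at their nearest pools, and 43 of all tested genes had a gap at least that wide.

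*Inmt* had 11.0, 14.7 and 17.1 CPM in DBA/2J against 36.3 and 49.1 CPM in *Gpnmb*+ (log2 fold change -1.58, SE 0.22). Its pools differed by a ratio of 1.55 within DBA/2J and 1.35 within *Gpnmb*+, and the coefficient of variation was 21.5% and 21.3%.

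**Figure D1:**
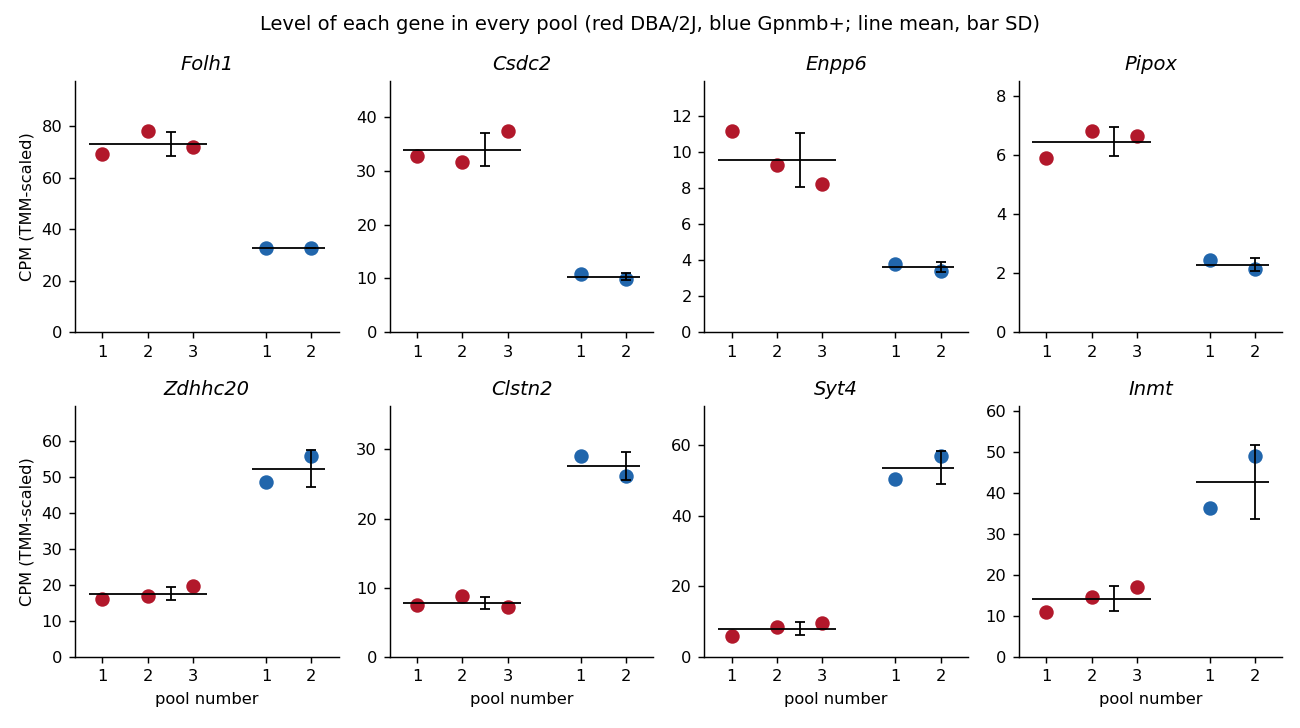
TMM-scaled CPM (y axis, from 0) of each gene in DBA/2J pools 1 to 3 (red) and Gpnmb+ pools 1 and 2 (blue), with the mean (line) and SD (bar) of each genotype. In each of the 8 panels the red and blue points do not overlap, and Syt4 shows the widest gap, 5.32 times between nearest pools.

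The spread within genotypes was under the median of all tested genes for 6 of the genes and above it for *Syt4* and *Inmt*. Spread entered the choice of the genes, so this is a description. The SD around each genotype's own mean, pooled over both genotypes on log2 CPM, was 0.287 for *Syt4* and 0.317 for *Inmt*. The median over all tested genes was 0.192. It was 0.191 for *Enpp6*, just under that median, and from 0.073 (*Folh1*) to 0.147 (*Zdhhc20*) for the other 5. A gap between nearest pools at least as wide as the narrowest of the 8, 2.10 times for *Folh1*, was found for 306 of all tested genes. The DBA/2J pool 2, with no *Xist*, lay between the other DBA/2J pools for *Zdhhc20*, *Syt4*, *Enpp6* and *Inmt*. It was highest for *Folh1*, *Clstn2* and *Pipox* and lowest for *Csdc2*, in each case within a ratio of 1.23 over the DBA/2J pools. The DBA/2J pool 3 had the most *Xist* of that genotype (2417 counts). For *Zdhhc20*, *Syt4*, *Inmt* and *Enpp6* pool 3 was the DBA/2J pool nearest to *Gpnmb*+. For *Csdc2* and *Clstn2* it was the farthest, and for *Folh1* and *Pipox* it lay between. The part of sex in these values was not tested.

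**Figure D2:**
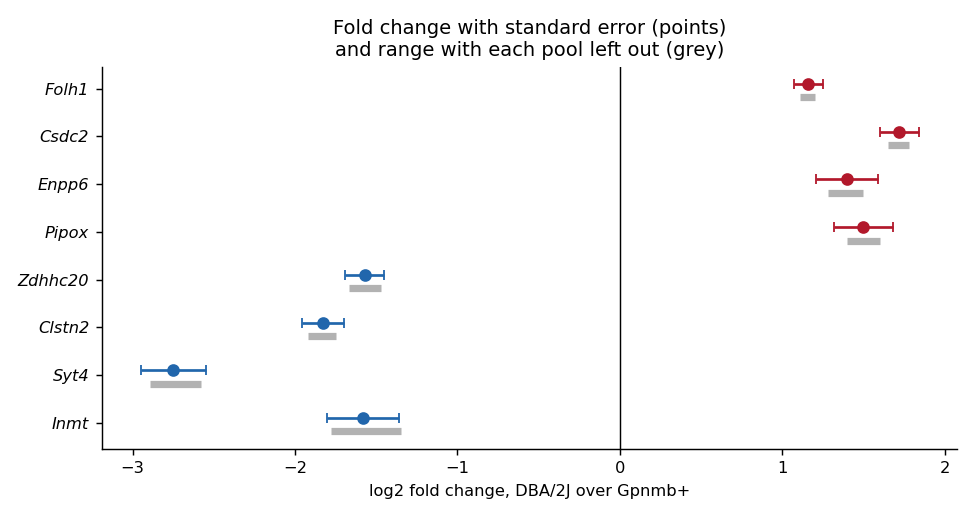
Log2 fold change of DBA/2J over Gpnmb+ (x axis) for each gene, with its standard error (points and bars), and under it the range with each pool left out in turn (grey). Inmt has the widest grey range, from -1.78 to -1.35. That the ranges keep to one side of 0 follows from how the genes were chosen.

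With each pool left out in turn, the log2 fold change stayed between 1.11 and 1.20 for *Folh1*, 1.65 and 1.78 for *Csdc2*, 1.28 and 1.50 for *Enpp6* and 1.40 and 1.60 for *Pipox*. The lower genes stayed between -1.67 and -1.47 (*Zdhhc20*), -1.92 and -1.75 (*Clstn2*), -2.89 and -2.58 (*Syt4*) and -1.78 and -1.35 (*Inmt*).

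Levels of different genes were compared as CPM per kilobase of merged exons. In *Gpnmb*+, *Inmt* was the most abundant, at 24.6 ± 5.23 (SD, n = 2), followed by *Syt4* at 13.0 ± 1.15 and *Folh1* at 6.64 ± 0.0267 (SD, n = 2). *Clstn2* (4.54 ± 0.33) and *Zdhhc20* (4.48 ± 0.44) overlapped, and then came *Csdc2* at 1.90, *Pipox* at 0.658 and *Enpp6* at 0.561. In DBA/2J the order turned, with *Folh1* first at 14.8 ± 0.923 (SD, n = 3), then *Inmt* at 8.21 ± 1.77 and *Csdc2* at 6.28 ± 0.559, whose pools overlapped. The other 5 genes lay between 1.28 (*Clstn2*) and 1.94 (*Syt4*), and the pools of most pairs of them overlapped. Only *Syt4* and *Clstn2*, *Pipox* and *Clstn2*, and *Pipox* and *Zdhhc20* kept apart, the last by 1.696 against 1.688. Per kilobase of the longest transcript instead, *Zdhhc20* came to 9.48 in *Gpnmb*+ and 3.19 in DBA/2J, and *Clstn2* to 6.22 and 1.75, which put *Zdhhc20* above *Syt4* (1.95) in DBA/2J and parted it from *Clstn2* in *Gpnmb*+.

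For the genes that act with these 8 or are related to them, 8 lists with 222 symbols in all were set down by function, and the 201 tested genes were not used to choose the 8. These lists too were chosen with earlier results of these data known. edgeR called 2 of the 201, or 0.995%, against 0.796% of all genes. Pools did not overlap for 71, or 35.3%, against 34.5% of all genes, and the median log2 fold change was 0.02 against -0.017 over all genes. DESeq2's Wald test called 18, or 8.96%, against 4.7% of all genes, and 21, or 10.4%, passed an unadjusted p-value of 0.05 in edgeR with the same fold change minimum, against 8.67% of all genes. Below, counts at an unadjusted p-value keep that minimum unless stated. Without any 1 of the DBA/2J pools, or without *Gpnmb*+ pool 2, 0 of the 201 were called, and without *Gpnmb*+ pool 1 it was 6.

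Of 27 tested genes of folate and NAAG handling, 0 were called by edgeR. DESeq2 called 3, or 11.1%, against 4.7% of all genes. An unadjusted p-value of 0.05 was passed by 3, or 11.1%, against 8.67% of all genes. Pools did not overlap for 9, or 33.3%, against 34.5%. The list's median log2 fold change was 0.05, against 1.16 for *Folh1*. The folate dehydrogenase *Aldh1l1* had the largest, 1.03 (adjusted p = 0.134, edgeR), from 2517, 2362 and 2442 counts for DBA/2J against 1789 and 932 for *Gpnmb*+. *Grm3*, the receptor for NAAG, was sparse, at 23 to 51 counts in DBA/2J against 56 and 80 in *Gpnmb*+. The folate receptor *Folr1* (log2 fold change 0.29) and *Ggh*, which trims folate inside lysosomes (0.05), had the highest levels per length and were not called.

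Around *Pipox*, 0 of 21 tested genes of sarcosine, choline and glycine breakdown and of peroxisomal oxidation were called by edgeR. DESeq2 called 3, or 14.3%, against 4.7% of all genes. An unadjusted p-value of 0.05 was passed by 3, or 14.3%, against 8.67% of all genes. Pools did not overlap for 10, or 47.6%, against 34.5%. *Dmgdh*, which makes sarcosine from dimethylglycine, had 24, 27 and 27 counts in DBA/2J against 81 and 58 in *Gpnmb*+ (log2 fold change -1.23, SE 0.28, adjusted p = 0.115, edgeR). *Gldc*, of the glycine cleavage system, had 15452, 13927 and 17121 counts in DBA/2J against 11097 and 5464 in *Gpnmb*+ (log2 fold change 1.09, SE 0.28, adjusted p = 0.149, edgeR). These values had opposite directions. The peroxisomal enzyme catalase, *Cat*, had a log2 fold change of -0.07 (SE 0.11).

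Around *Enpp6*, 0 of 29 tested genes of choline metabolism and of its own enzyme family were called by edgeR. DESeq2 called 1, or 3.45%, against 4.7% of all genes. An unadjusted p-value of 0.05 was passed by 1, or 3.45%, against 8.67% of all genes. Pools did not overlap for 8, or 27.6%, against 34.5%. The family members *Enpp3* and *Enpp5* had the highest levels per length of the list, with log2 fold changes of -0.33 (SE 0.33) and 0.12 (SE 0.12). The transporter *Flvcr2* had a log2 fold change of -0.78 (SE 0.22) and the sparse *Slc44a5* -0.74 (SE 0.54).

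Around *Inmt*, 0 of 18 tested methyltransferases and genes of methyl donor and amine metabolism were called by edgeR. DESeq2 called 2, or 11.1%, against 4.7% of all genes. An unadjusted p-value of 0.05 was passed by 2, or 11.1%, against 8.67% of all genes. Pools did not overlap for 6, or 33.3%, against 34.5%. *Ddc*, the decarboxylase that forms indoleamines such as tryptamine, had 57, 65 and 95 counts in DBA/2J against 222 and 204 in *Gpnmb*+ (log2 fold change -1.38, SE 0.26, adjusted p = 0.0858, edgeR). *Tmt1a*, a thiol methyltransferase, had -0.64 (SE 0.17), and *Mat2a*, which makes S-adenosylmethionine, had 0.26 (SE 0.16).

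Of 32 tested palmitoyl transferases, their partners and thioesterases, 0 were called by edgeR and 0 by DESeq2. None passed an unadjusted p-value of 0.05 with the fold change minimum, and 3 did without it. The median log2 fold change was 0.03, against -1.57 for *Zdhhc20*. The values farthest from 0 were 0.53 (SE 0.15) for the thioesterase-like *Lyplal1* and -0.42 (SE 0.15) for *Zdhhc23*. The lysosomal thioesterase *Ppt1* had 0.20 (SE 0.09), and *Selenok*, a selenoprotein partner of a DHHC enzyme, -0.07 (SE 0.09).

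Of 40 tested synaptotagmins and exocytosis genes, edgeR called 1, *Syt17*, and DESeq2 called 4, while 5 of the 40 passed an unadjusted p-value, or 12.5%. *Syt17* had 976, 860 and 1179 counts in DBA/2J against 480 and 436 in *Gpnmb*+, and rose in DBA/2J by a log2 fold change of 1.31 (SE 0.15, adjusted p = 0.035, edgeR). Its direction was opposite to that of *Syt4*. *Doc2b*, a calcium sensor of exocytosis, had 96, 83 and 76 counts in DBA/2J against 185 and 240 in *Gpnmb*+ (log2 fold change -1.14, adjusted p = 0.0879, edgeR). *Rab27a*, which tethers melanosomes and secretory granules, and *Vamp8*, a vesicle SNARE, had the highest levels per length, with log2 fold changes of -0.22 (SE 0.11) and -0.19 (SE 0.11).

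Of 29 tested calsyntenins, neurexins and other synaptic adhesion genes, edgeR called 1, *Nlgn1*, or 3.45%, against 0.796% of all genes. DESeq2 called 5, or 17.2%, against 4.7% of all genes. At an unadjusted p-value 7 passed, or 24.1% against 8.67%, and pools did not overlap for 13, or 44.8% against 34.5%. *Nlgn1*, a neuroligin, had 981, 1076 and 1190 counts in DBA/2J against 465 and 277 in *Gpnmb*+, and rose in DBA/2J by a log2 fold change of 1.73 (SE 0.23, adjusted p = 0.043, edgeR). *Clstn2* had the opposite direction. *Lrrtm1*, another synaptic organizer, had a log2 fold change of 1.94 (SE 0.38, adjusted p = 0.0875, edgeR). The amyloid precursor family members *App* (0.32) and *Aplp2* (0.41) were the most abundant of the list and were not called.

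Of 8 tested cold shock and related RNA-binding genes, 0 were called by edgeR and 0 by DESeq2, and 0 passed an unadjusted p-value of 0.05 with the fold change minimum. *Carhsp1*, a close relative of *Csdc2*, had 3643, 3006 and 3426 counts in DBA/2J against 3395 and 3013 in *Gpnmb*+ (log2 fold change 0.25, SE 0.10). *Ybx1* and *Ybx3*, cold shock proteins of high level, had 0.02 (SE 0.10) and -0.12 (SE 0.15), and the cold-inducible *Rbm3* had 0.13 (SE 0.18).

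**Figure D3:**
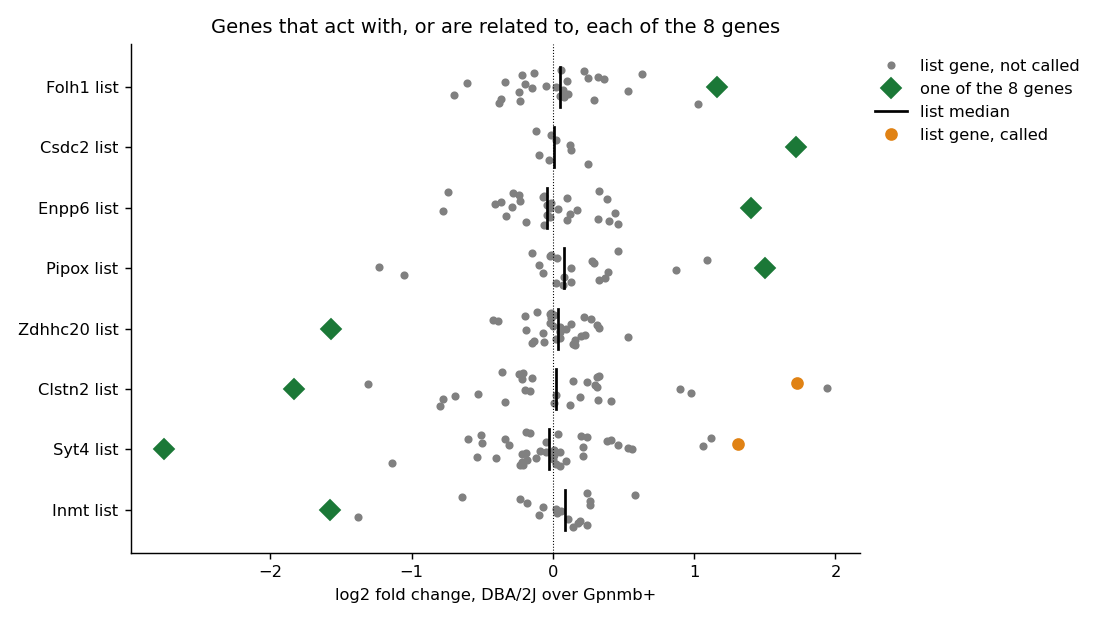
Log2 fold change of DBA/2J over Gpnmb+ (x axis) for the tested genes of each functional list (grey, not called by edgeR, orange, called), the list median (black line) and the gene the list was built around (green diamond). The medians lie between -0.04 and 0.09, while the diamonds lie from -2.75 to 1.72.

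Genes next to the 8 on their chromosomes were compared in the same way, with the 3 nearest tested genes on each side. Of 48 such neighbors, edgeR called 0 and DESeq2 called 2, or 4.17%, against 4.7% of all genes. An unadjusted p-value of 0.05 with the fold change minimum was passed by 4, or 8.33%, against 8.67%. Pools did not overlap for 16, or 33.3%, against 34.5% of all genes, and the median log2 fold change was -0.03. *Pmm1*, on the opposite strand 0.2 kb past the end of *Csdc2*, had a log2 fold change of -0.47 (SE 0.34). *Mrpl57*, 3.3 kb from *Zdhhc20*, had -0.03 (SE 0.14), and *Micu2* on its other side -0.13 (SE 0.08). *Nox4* and the lncRNA 2610206C17Rik beside *Folh1* had 0.47 (SE 0.15) and 0.06 (SE 0.56). Beside *Clstn2*, *Nmnat3* had -0.42 (SE 0.16) and *Gm33302* -0.57 (SE 0.34).

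*Rit2* and *Slc25a46* beside *Syt4* had log2 fold changes of -0.05 (SE 0.64) and -0.03 (SE 0.09), and *Irf2* and *Stox2* beside *Enpp6* had -0.09 (SE 0.10) and 0.21 (SE 0.11). *Sez6*, 36.7 kb from *Pipox*, had 183, 246 and 223 counts in DBA/2J against 74 and 138 in *Gpnmb*+ (log2 fold change 1.21, SE 0.33, adjusted p = 0.164, edgeR). *Myo18a*, 14.6 kb away on the other side, had 0.33 (SE 0.08).

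*Inmt* had the neighbors with the lowest median, a log2 fold change of -0.48 over 6 genes, of which 4 had all DBA/2J pools under both *Gpnmb*+ pools, against 17.2% of all genes in that direction. None of the 6 was called by edgeR, and 1 was called by DESeq2, or 16.7%, against 4.7% of all genes. An unadjusted p-value of 0.05 with the fold change minimum was passed by 2, or 33.3%, against 8.67% of all genes. *Crhr2*, a receptor of the corticotropin-releasing hormone family, had 26, 30 and 69 counts in DBA/2J against 94 and 140 in *Gpnmb*+ (log2 fold change -1.32, adjusted p = 0.26, edgeR). *Mindy4* had 346, 386 and 458 counts against 663 and 663 (log2 fold change -0.56, adjusted p = 0.161, edgeR). *Inmt* lies on the chromosome of *Gpnmb*, 6.1 Mb from it. Of the 41 tested genes between them 0 were called by edgeR. DESeq2 called 4, or 9.76%, against 4.7% of all genes, and 9 passed an unadjusted p-value of 0.05, or 22.0%, against 8.67%. Both shares were over those of all genes, while the median log2 fold change was -0.01. Pools did not overlap for 16 of the 41, against 34.5% of all genes.

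**Figure D4:**
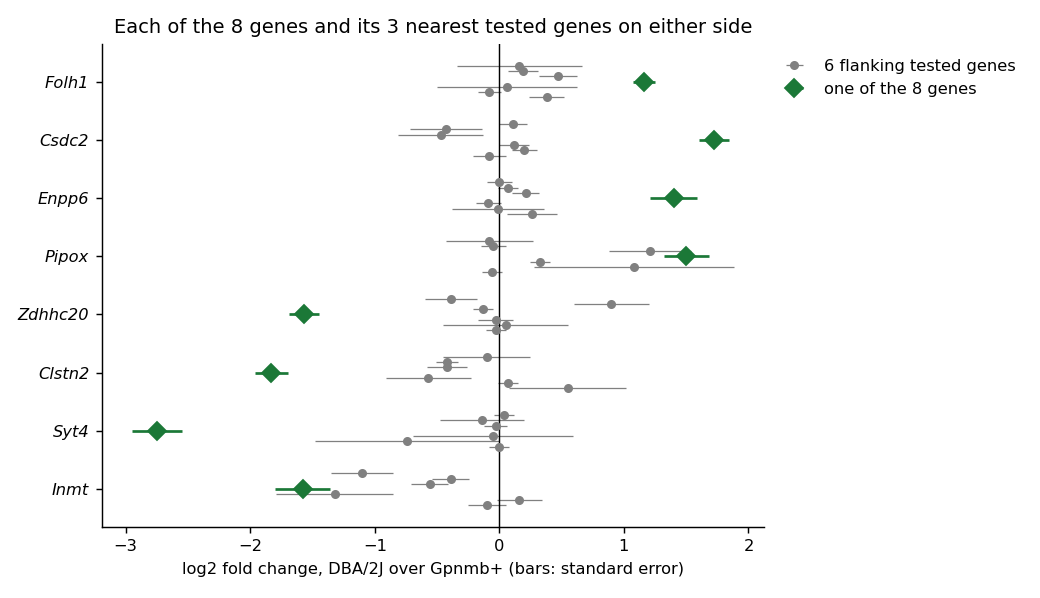
Log2 fold change of DBA/2J over Gpnmb+ with its standard error (x axis) for each gene (green diamond) and its 3 nearest tested genes on either side (grey). The neighbors lie between -1.32 and 1.21, with both extremes beside Inmt and Pipox.

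The genes whose pattern over the 5 pools was most like each of the 8 were found by the root mean square difference of centred log2 CPM among genes with a mean log2 CPM of at least 1. *Pipox* was nearest to *Slc1a3*, a glutamate transporter (difference 0.040). *Csdc2* was nearest to *Six6*, an eye field transcription factor (0.109), and to *Iyd* (0.113). *Six6* also stands in the list of nonpigmented ciliary epithelium markers described below. *Folh1* was nearest to *Cadm2* (0.057) and *Mapk10* (0.079), and *Enpp6* to *Ppa1* (0.088) and 1600027J07Rik (0.094). *Zdhhc20* and *Inmt* were both nearest to *Hs3st3a1*, a heparan sulfate sulfotransferase, at 0.108 and 0.055, and then to *Tmem178* (0.109) and *Tmem72* (0.091). *Clstn2* was nearest to *Pou3f3* (0.114) and *Ctxnd1* (0.142). *Syt4* had no gene as near, with *Car6*, a secreted carbonic anhydrase, at 0.232 and the channel *Mcoln3* at 0.272. Among the 8, the nearest pair was *Zdhhc20* and *Inmt* (0.149), followed by *Csdc2* and *Pipox* (0.151).

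Markers of the tissue and its neighbors are given beside these results. The marker lists were chosen with earlier results of these data known, so their counts are a description and no independent test. Nonpigmented ciliary epithelium, which lines the ciliary body next to the angle, had markers that differed in the direction of *Folh1*, *Csdc2*, *Enpp6* and *Pipox*. For 8 of 8 markers the DBA/2J pools all lay above the *Gpnmb*+ pools, against 17.3% of all genes. edgeR called 3 of them higher, *Six6* and *Col9a1* included, against 0.502% of all genes, and the median log2 fold change was 1.61. Their summed level was 976 to 1260 CPM in DBA/2J against 405 and 233 CPM in *Gpnmb*+ pools 1 and 2, with *Optc* and *Zic1* the most abundant. The *Gpnmb*+ pools thus differed by a ratio of 1.74 in these markers, against 1.01 for *Folh1*, 1.09 for *Csdc2*, 1.11 for *Enpp6* and 1.15 for *Pipox*. The part of this tissue in the values of the 4 genes was not tested.

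Markers of trabecular meshwork and limbal stroma had values on the side of *Zdhhc20*, *Clstn2*, *Syt4* and *Inmt*, with negative log2 fold changes for all 7 tested and a median of -0.82. For 5 the DBA/2J pools all lay under the *Gpnmb*+ pools, against 17.2% of all genes, while *Lum* (-0.16) and *Mgp* (-0.06) overlapped. edgeR called 0 of the 7, DESeq2 called 3, against 4.7% of all genes, and 4 passed an unadjusted p-value of 0.05, against 8.67%. The sum, led by *Dcn* and *Lum*, was 3490 to 4140 CPM in DBA/2J and 4970 to 5120 CPM in *Gpnmb*+. *Myoc*, a defining marker of trabecular meshwork, was present in every pool, at 7106 to 13989 counts in DBA/2J against 22068 and 26147 in *Gpnmb*+. Schwann cell markers were 264 to 326 CPM in sum in DBA/2J and 364 to 417 CPM in *Gpnmb*+, led by *Mbp* and *Scn7a*. Of these 8, 7 had negative log2 fold changes, with a median of -0.60. edgeR called 2 lower, *S100b* included, against 0.294% of all genes, and DESeq2 called 4, against 4.7%. For 6 the DBA/2J pools all lay under the *Gpnmb*+ pools, against 17.2% of all genes. For 1, *Scn7a*, they all lay above, against 17.3%. The part of these cells in the values of the 4 genes was not tested.

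Oligodendrocyte markers, led by *Cnp* and *Ermn*, were 44.0 to 46.4 CPM in DBA/2J and 48.1 to 55.1 CPM in *Gpnmb*+, and *Mog*, *Opalin* and *Olig1* reached at most 4 counts in any pool. Of the 5 tested, 1 lay higher in DBA/2J without overlap, *Cnp* (log2 fold change 0.28, SE 0.09), against 17.3% of all genes. Another 2 lay lower without overlap, against 17.2%, *Ermn* (-1.12, SE 0.28) included. edgeR called 0 of the 5, and DESeq2 called 2, against 4.7% of all genes. The sums of the other 9 marker lists overlapped between genotypes, and edgeR called 1 of their genes, the pigment gene *Slc45a2*, lower in DBA/2J. Photoreceptor markers, *Gnat1* included, differed by a ratio of 5.46 between the *Gpnmb*+ pools, and neuron markers, led by *Snap25* and *Nefl*, by 2.31. The part of these cells in the values of the 8 genes was not tested. Lens markers, led by *Bfsp2* and *Bfsp1*, were at most 20.8 CPM in sum, and *Lim2*, *Mip* and *Birc7* reached at most 4 counts. Skeletal muscle markers, led by *Acta1* and *Ttn*, were 187 to 497 CPM in DBA/2J against 139 to 193 CPM, with positive log2 fold changes for 8 of 8. Their sums overlapped, and the DBA/2J pools differed by a ratio of 2.66, with pool 3 highest. edgeR called 0 of the 8, and DESeq2 called 1, or 12.5%, against 4.7% of all genes. Pools did not overlap for 3, all higher in DBA/2J, against 17.3% of all genes. Pigment cell markers summed to 3460 to 4570 CPM against 3720 to 4340, corneal epithelium, led by *Krt5* and *Krt15*, to 6820 to 11300 against 11200 to 12400, and smooth muscle to 751 to 883 against 825 to 1050. *Krt12*, the keratin specific to corneal epithelium, had 254, 116 and 9.44 CPM in DBA/2J against 1700 and 554 CPM in *Gpnmb*+ (log2 fold change -3.16, SE 1.16, adjusted p = 0.27, edgeR). Its pools did not overlap, which held in that direction for 2 of the 8 corneal epithelium markers (25.0%), against 17.2% of all genes. edgeR and DESeq2 called 0 of these 8, and *Krt14* had a positive log2 fold change of 0.31 (SE 0.50). The part of *Krt12* in the values of the 4 lower genes was not tested. Macrophage markers summed to 714 to 984 CPM against 682 to 808, and endothelial markers to 423 to 542 against 429 to 463.

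**Figure D5:**
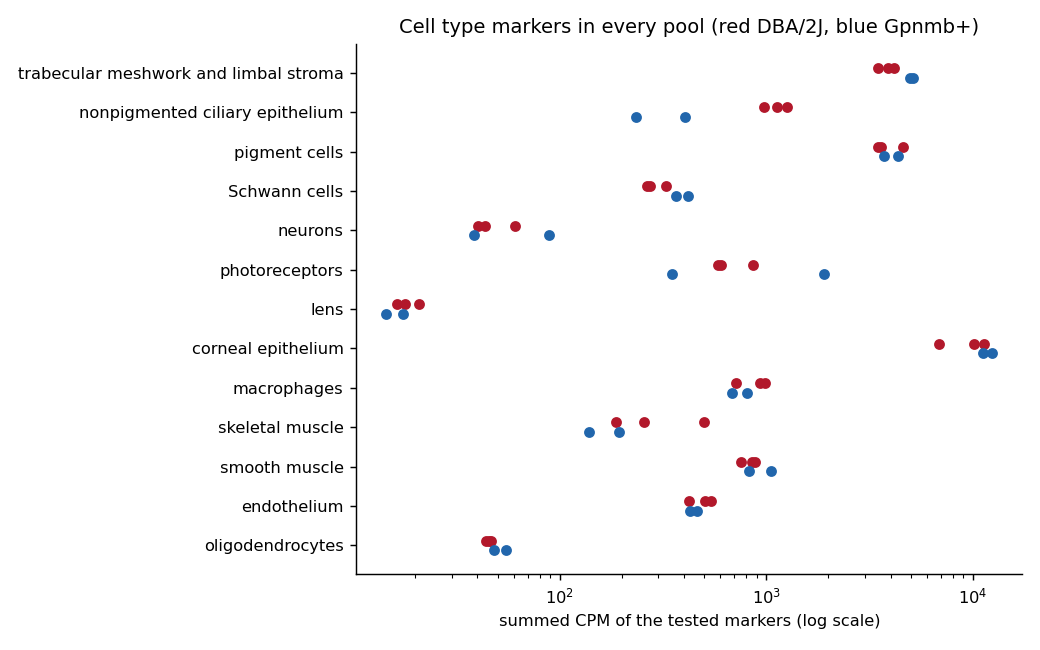
Summed CPM of the tested markers of each cell type (x axis, log scale) in the 3 DBA/2J pools (red) and the 2 Gpnmb+ pools (blue). The pools separate for nonpigmented ciliary epithelium (976 to 1260 CPM against 233 to 405) and, by less, for trabecular meshwork and limbal stroma, Schwann cells and oligodendrocytes. Cnp, the most abundant oligodendrocyte marker, had the direction opposite to that of its sum.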

How the data were processed

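RNA was measured in 3 DBA/2J and 2 *Gpnmb*+ pools of iridocorneal tissue, grouped by their labels. After trimming (fastp) and alignment to GRCm39 (STAR), the authors summed reads with a single genomic position over Ensembl genes and deposited these raw counts, not normalized. The strand setting of counting is not given in the sources used here, so overlapping and antisense genes are uncertain. Whether pools of one genotype came from separate litters is not given either, and p-values measure the spread between these pools.

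Names and positions came from GENCODE M39 on GRCm39, which held 56323 of 56941 identifiers. Genes reaching 10 counts in any pool were fitted in R 4.3.3 with edgeR 4.0.16 (TMM, quasi-likelihood, no covariate) and, as alternatives, DESeq2 1.42.0 with and without ashr 2.2.63. A call took an adjusted p (Benjamini-Hochberg) up to 0.05 together with a 1.5-fold change. The prior count for log2 CPM was 2. The fit was tested on simulated data. Tables and figures were made in Python 3.11.15. Coefficients of counting error cover the sampling of reads and not the variation between mice.

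The 8 genes, the functional lists and the marker lists were chosen with earlier results of these data known. Besides the 8 and *Gpnmb*, *Xist* and *Ddx3y*, genes were named if called in a functional list, or else if among the 2 with the largest absolute log2 fold change or the 2 of highest level per length, if nearest on a flank or called there, if among the 2 most alike in pattern, or if among the 2 most abundant markers of a list. *Chil1*, *Mettl7a1* and *Vamp7* matched no name in the annotation. *Myoc*, *Mgp*, *Krt12*, the called markers and those under the count minimum were named after their values were seen. Lists were not tested as sets. Some genes that this rule selects are not reported here. Protein sequences, proteomics and pressure data were not used here.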

Additional observations from a re-analysis of the deposited data

How the results depend on the processing

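The log2 fold changes of the 8 genes kept their direction, and moved by less than 1 SD between pools, under all 96 alternatives run for them, which the choice of genes on these pools fixes in large part and which is no sign of stability (other size factors, DESeq2's Wald test with or without ashr, 2 other count filters, another prior count, a block and each pool left out). Counts of calls depended on the setting. Genes called higher, 99 as reported, came to 545 by DESeq2's Wald test, 447 with ashr, 242 with no count filter and 827 at an unadjusted p-value, and ranged from 0 to 150 with each pool left out. Genes called lower, 58 as reported, came to 382, 287, 118 and 883 under the same settings and ranged from 1 to 67 with each pool left out. Of the functional lists, 2 calls became 18, 14, 7 and 21, with a range of 0 to 6. Of the neighbors, 0 calls became 2 by DESeq2's Wald test, 2 with ashr and 4 at an unadjusted p-value. Leaving out a *Gpnmb*+ pool left 1, which was assumed to vary like the other pools. The cause of these shifts was not tested. Pool numbers 1 and 2 occur in both genotypes, and same-numbered pools deviated together with r = 0.279 and 0.254, but with only 2 pairs and no stated link they share only a number. With the replicate block, 120 genes were called higher, 100 lower and 1 in the functional lists (*Syt17*, without *Nlgn1*), and 7 of the 8 genes were called, all but *Pipox*. Per kilobase of the longest transcript, levels moved by more than 1 SD for 7 of the 8 genes, all but *Syt4*. *Pipox*, at 104 to 297 counts, had the fewest reads and so the largest counting error.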
